A study of Homo sapiens with 6 samples.

Results

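Molecular chaperones of the heat shock family were followed in SKOV3, an established human ovarian carcinoma cell line, after an siRNA against NRCP, a long non-coding RNA. The 10 genes were HSPA1A, HSPA1B, HSPA4, HSPA8, HSPH1, HSP90AA1, HSP90AB1, HSPB1, HSPD1 and DNAJB1, and every probe whose platform annotation gave 1 of these symbols was taken. That gave 17 of the 47231 probes on the array, and 10 of the 20046 named genes. The cells had received either a control siRNA (sicontrol) or the siRNA against NRCP (siNRCP) for 48 h, with 3 samples per group and 1 Illumina bead array per sample. Both groups were of the same cell line, both had been given an siRNA, and no group without siRNA entered the comparison. The labels do not say whether the 3 samples of a group came from separate cultures, so the spread behind each p-value is that of these samples and may be technical.

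Heat shock proteins bind unfolded or partly folded proteins and keep them from aggregating. HSP70 proteins take up a client under the control of J-domain proteins, which start ATP hydrolysis, and of nucleotide exchange factors, which release ADP and with it the client, and HSP90 proteins finish the folding of kinases and hormone receptors. The heat shock factor HSF1 raises many of these genes together when unfolded protein accumulates, and carcinoma cells are known for high levels of several of them.

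All values are log2 normalized bead intensities, and a change is siNRCP minus sicontrol on that scale, with its standard error (SE) from limma. A probe was called when its limma p, adjusted by Benjamini-Hochberg over all 47231 probes, was under 0.05. A probe was above background on an array when it exceeded the 95th percentile of 457 olfactory receptor probes there, since those receptors are made almost solely in the nose. The precision is limited by the number of arrays, and an exact permutation test of 3 against 3 cannot go below p = 0.10. The mean raw intensity was 555 to 563 in sicontrol and, for siNRCP, 554 on array 1, 373 on array 2 and 486 on array 3, and 39.6% to 43.3% of the probes lay above background. siNRCP array 1 stood apart from siNRCP arrays 2 and 3: its correlation with array 2 over all probes was 0.963, against 0.992 between arrays 2 and 3 and 0.983 to 0.986 between it and the sicontrol arrays. Results are therefore given with and without it. Since it was picked from these same data, the fit without it is a description and no independent test. The annotation gave NRCP to no probe, and the depth of the knockdown was not analysed here. All 7 markers of this carcinoma line, such as KRT8 and EPCAM, were above background on every array. Of 5 leukocyte markers CD68 was above it on every array (10.84 to 10.95 in sicontrol; 10.71, 11.51 and 11.14 in siNRCP), CD14 on 1, and PTPRC, CD3E and LYZ on none. Of 4 endothelial markers PECAM1 was above it on 3 arrays and CDH5, VWF and KDR on none. Of 5 fibroblast markers COL1A1 was above it on every array, COL1A2 on 5, DCN on 1, and LUM and PDGFRB on none. The part of these markers in the results was not tested.

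None of the 10 chaperone genes passed the test over all 6 arrays, and most had higher values on siNRCP arrays 2 and 3. Limma called 0 of the 17 probes higher and 0 lower, where it called 1.65% of all probes in either direction, 0.737% higher and 0.917% lower. At an unadjusted p under 0.05, 8 of the 17 probes were higher and 0 were lower, against 7.25% and 6.53% of all probes. Of the 19609 probes above background on at least 3 arrays, which hold 16 of the 17, 3031 were higher and 2719 lower at that p. The change was positive for 14 of the 17 probes (82.4%) and for 50.9% of all probes. On 1 probe per gene, the one with the highest mean value, the median change of the 10 genes was 0.38 log2, and that of the 20046 named genes was 0.0079. For the named genes above background on at least 3 arrays the median was 0.016. Scaling each array by its median instead of quantile normalization lowered the median of the 10 genes to 0.18 and that of the named genes above background to -0.13.

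The arrays of the siNRCP group did not carry the difference equally. The median change of the 10 genes was 0.14 on siNRCP array 1, 0.48 on array 2 and 0.58 on array 3, each against the mean of the sicontrol arrays. On array 1, 11 of the 17 probes (64.7%) lay within the range of the sicontrol arrays. So did 41.7% of all probes and 30.6% of those above background on at least 3 arrays. Arrays 2 and 3, in contrast, both lay above all 3 sicontrol arrays for 11 chaperone probes (64.7%). The latter pattern held for 21.3% of all probes and for 35.0% of those above background on at least 3 arrays. In raw intensity siNRCP array 2 was the lowest array for the brightest probes of HSPA1A, HSPA1B, HSPA8, HSPH1, HSPB1, HSPD1 and DNAJB1. For HSPA4, HSP90AA1 and HSP90AB1 its raw value was within the sicontrol range. The 3 siNRCP arrays all lay above the 3 sicontrol arrays for 3 chaperone probes, 1 of HSPA1A and 2 of HSP90AA1, where 9.15% of all probes and 14.1% of those above background did so. The opposite separation was seen for 0 of the 17 chaperone probes and for 8.68% of all probes. Without siNRCP array 1 limma called 11 of the 17 chaperone probes higher, in 8 of the 10 genes, and 1 lower, but it also called 10.5% of all probes higher and 10.5% lower, and 24.5% of the probes above background higher.

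The sicontrol arrays also differed among themselves in a shared way. For 11 of the 17 chaperone probes, and for 8 of the 10 genes by their brightest probe, sicontrol array 1 was the highest and sicontrol array 2 the lowest of the 3, an order seen in 21.7% of all probes and in 28.6% of those above background. HSPB1, DNAJB1, the dim HSP90AA1 probe and the HSPD1 probe ILMN_1774410 had array 2 highest. The last of these was above background on 0 arrays. In bulk RNA, fewer cells that express a gene and less of its RNA per cell cannot be told apart.

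**Figure D1:**
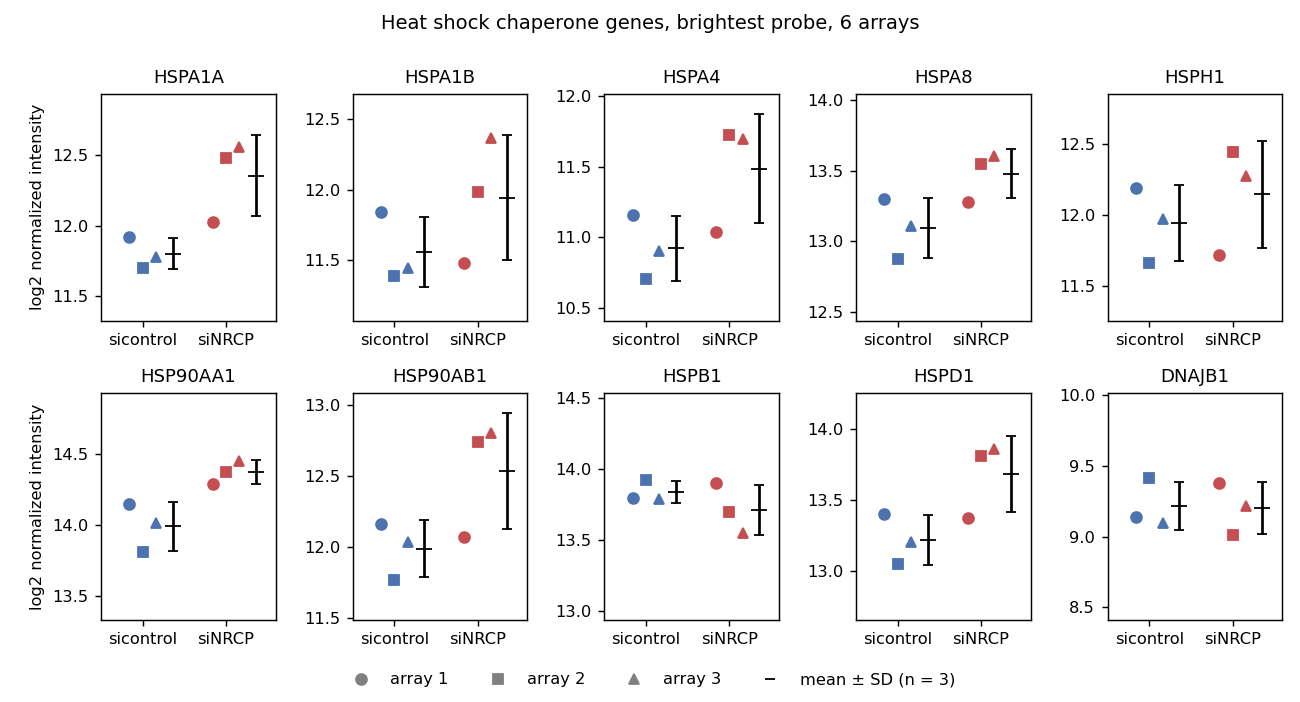
Log2 normalized intensity of the brightest probe of each of the 10 chaperone genes on the 3 sicontrol and 3 siNRCP arrays, with the mean and SD of each group (n = 3). Each panel spans the same height in log2 units around its own level. siNRCP arrays 2 and 3 lie above all sicontrol arrays for 8 genes, while siNRCP array 1 lies above them for HSPA1A and HSP90AA1.

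The promoter sequences of these genes are shown because the members are commonly described as targets of HSF1, whose binding element repeats a short GAA or TTC unit. Promoter windows, 250 bases before to 50 after a gene's start, were taken from RefSeq (GRCh38.p14), which had 16 windows for 10 of the 10 genes. The windows were searched for a pair of inverted units, GAANNTTC or TTCNNGAA, and for runs of 3 units, GAANNTTCNNGAA or TTCNNGAANNTTC. Each pair reads the same on both strands, each run of 3 is the other's reverse complement, and each run contains both kinds of pair. A pair was found in 9 of the 16 windows and in 8 of the 10 genes, against 13.5% of 35116 windows and 16.2% of 27305 genes. A run of 3 was found in HSPA8, HSP90AA1, HSP90AB1 and HSPD1, and in 0.490% of all windows. A match is only a match of letters, and some genes have several windows. The windows below have the matched letters in capitals. HSPA1A (chr6:31815293-31815592, plus strand) and HSPA1B (chr6:31827488-31827787, plus strand) show how alike this gene pair is. The windows of HSPA8 (chr11:123062087-123062386, minus strand), HSP90AA1 (chr14:102086995-102087294, minus strand), HSP90AB1 (chr6:44247693-44247992, plus strand) and HSPD1 (chr2:197499791-197500090, minus strand) carry the runs of 3. DNAJB1 (chr19:14518348-14518647, minus strand) carries pairs but no run of 3.
HSPA1A: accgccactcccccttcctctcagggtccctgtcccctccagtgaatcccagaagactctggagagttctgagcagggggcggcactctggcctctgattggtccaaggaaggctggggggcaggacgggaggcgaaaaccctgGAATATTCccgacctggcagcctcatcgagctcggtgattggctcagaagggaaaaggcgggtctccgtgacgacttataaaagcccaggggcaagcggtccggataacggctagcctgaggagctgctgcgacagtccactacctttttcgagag
HSPA1B: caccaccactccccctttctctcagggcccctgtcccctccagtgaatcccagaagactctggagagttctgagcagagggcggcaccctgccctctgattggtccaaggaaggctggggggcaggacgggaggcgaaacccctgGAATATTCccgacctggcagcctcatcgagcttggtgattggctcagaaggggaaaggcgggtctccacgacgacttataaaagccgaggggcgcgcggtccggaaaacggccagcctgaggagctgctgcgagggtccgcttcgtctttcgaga
HSPA8: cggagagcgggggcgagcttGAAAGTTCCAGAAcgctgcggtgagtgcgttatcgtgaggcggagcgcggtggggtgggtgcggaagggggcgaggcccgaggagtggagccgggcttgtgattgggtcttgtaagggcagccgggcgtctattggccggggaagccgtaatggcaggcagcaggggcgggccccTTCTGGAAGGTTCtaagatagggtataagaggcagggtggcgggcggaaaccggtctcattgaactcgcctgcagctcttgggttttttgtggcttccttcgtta
HSP90AA1: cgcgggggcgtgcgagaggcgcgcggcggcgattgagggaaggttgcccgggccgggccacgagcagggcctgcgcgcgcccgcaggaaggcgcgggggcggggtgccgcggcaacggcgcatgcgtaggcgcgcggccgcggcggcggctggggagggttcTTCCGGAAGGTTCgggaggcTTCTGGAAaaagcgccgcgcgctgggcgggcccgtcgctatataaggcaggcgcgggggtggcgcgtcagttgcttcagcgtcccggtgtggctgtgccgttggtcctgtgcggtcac
HSP90AB1: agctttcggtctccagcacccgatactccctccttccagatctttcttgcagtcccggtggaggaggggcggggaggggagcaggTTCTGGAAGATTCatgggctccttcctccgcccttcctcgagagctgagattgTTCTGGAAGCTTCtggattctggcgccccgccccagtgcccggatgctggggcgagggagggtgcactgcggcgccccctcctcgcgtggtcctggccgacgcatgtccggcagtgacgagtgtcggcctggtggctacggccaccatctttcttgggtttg
HSPD1: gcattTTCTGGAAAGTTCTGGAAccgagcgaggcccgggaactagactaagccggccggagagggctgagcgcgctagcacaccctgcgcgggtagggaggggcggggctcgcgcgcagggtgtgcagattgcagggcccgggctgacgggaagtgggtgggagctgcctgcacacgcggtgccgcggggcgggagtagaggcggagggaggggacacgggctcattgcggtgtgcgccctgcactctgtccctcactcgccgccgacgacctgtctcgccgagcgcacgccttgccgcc
DNAJB1: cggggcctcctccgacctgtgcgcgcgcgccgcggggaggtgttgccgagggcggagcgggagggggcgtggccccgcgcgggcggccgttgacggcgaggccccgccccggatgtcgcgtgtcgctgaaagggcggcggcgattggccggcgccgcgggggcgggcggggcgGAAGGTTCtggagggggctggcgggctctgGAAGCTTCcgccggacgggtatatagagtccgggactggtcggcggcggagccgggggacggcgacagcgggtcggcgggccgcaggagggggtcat

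The matches did not separate the genes with a positive change from the others. HSPA4 and HSPH1 had no match in their windows and had changes of 0.56 and 0.20 log2. HSPB1 and DNAJB1 had matches and had changes of -0.12 and -0.01 log2. The 4 genes with a run of 3 had changes of 0.38 to 0.55 log2 by their brightest probes. These are positions of letters in a window and say nothing of binding.

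HSPA1A and HSPA1B encode the stress-inducible cytosolic HSP70, and the 2 genes are near-identical copies. HSPA1A (ILMN_1789074) read 11.92, 11.70 and 11.78 in sicontrol (arrays 1 to 3, in this order throughout) and 12.02, 12.48 and 12.56 in siNRCP. The groups did not overlap, and siNRCP array 1 lay just above the highest sicontrol array. The mean was 11.80 ± 0.11 (SD, n = 3) in sicontrol and 12.35 ± 0.29 in siNRCP, a change of 0.55 ± 0.15 (1.46-fold; limma adjusted p = 0.15). Without siNRCP array 1 the change was 0.71 ± 0.11 (1.64-fold; limma adjusted p = 0.00017), which passed the test. Before normalization the raw intensity of this probe was 3785 to 4484 on the sicontrol arrays and 4810, 3672 and 5450 on siNRCP arrays 1 to 3. The raw value on siNRCP array 2, the array with the lowest mean raw intensity, was thus the lowest of the 6.

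HSPA1B (ILMN_1660436) read 11.84, 11.39 and 11.45 in sicontrol and 11.48, 11.99 and 12.36 in siNRCP. siNRCP array 1 lay within the sicontrol range, close to its lower end, and the other 2 above it. The change was 0.39 ± 0.23 (limma adjusted p = 0.54), and 0.62 ± 0.15 without siNRCP array 1 (limma adjusted p = 0.0051). The promoter windows of HSPA1A and HSPA1B were identical at 277 of 301 aligned positions (92.0%). The transcripts of these copies are near-identical too, and probe sequences were not used here, so it is uncertain which copy each probe reads. The 2 probes differed on siNRCP array 1, where HSPA1A was 0.22 above the sicontrol mean and HSPA1B was at -0.08 relative to it.

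HSPA8 encodes the constitutive cytosolic HSP70, which also uncoats clathrin vesicles. Its brighter probe (ILMN_2413084) read 13.30, 12.88 and 13.11 in sicontrol and 13.28, 13.55 and 13.61 in siNRCP, so that array 1 again lay within the sicontrol range and the other 2 above it. The change was 0.38 ± 0.14 (limma adjusted p = 0.28), and 0.48 ± 0.13 without siNRCP array 1 (limma adjusted p = 0.011). The second probe (ILMN_1686367) had a change of 0.27 ± 0.15 (limma adjusted p = 0.53), which was -0.0090 under median scaling, and 0.40 ± 0.13 without siNRCP array 1 (limma adjusted p = 0.035). On both probes the normalized values of siNRCP arrays 2 and 3 lay above all sicontrol arrays and those of siNRCP array 1 within their range. In raw intensity siNRCP array 2 lay below every sicontrol array on both probes (8006 and 6615, against at least 9154 and 9643). On the brighter probe the raw value of siNRCP array 3 (10928) was below the highest sicontrol array (11155). Under median scaling the change of the brighter probe was 0.11.

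HSPA4 and HSPH1 encode HSP110 proteins, which act as nucleotide exchange factors of HSP70. HSPA4 (ILMN_1734814) read 11.16, 10.70 and 10.90 in sicontrol and 11.04, 11.72 and 11.69 in siNRCP. Arrays 2 and 3 of siNRCP lay well above every sicontrol array, and array 1 was inside their range. The change was 0.56 ± 0.21 (1.48-fold; limma adjusted p = 0.28), and 0.78 ± 0.13 without siNRCP array 1 (1.72-fold; limma adjusted p = 0.00025). The dimmer HSPA4 probe (ILMN_1755134) had a change of 0.08 ± 0.17 (limma adjusted p = 0.91), and its siNRCP arrays all lay within the sicontrol range of 6.85 to 7.36. The 2 HSPA4 probes therefore disagreed in size, and the dimmer one did not pass the test without siNRCP array 1 either (0.23 ± 0.14, limma adjusted p = 0.33).

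HSPH1 (ILMN_1712888) read 12.19, 11.66 and 11.97 in sicontrol and 11.72, 12.44 and 12.27 in siNRCP. siNRCP array 1 lay near the lowest sicontrol array, and arrays 2 and 3 were above the highest. In raw intensity siNRCP array 2 (3595) was below the sicontrol range of 3652 to 5396, and siNRCP array 3 (4587) was within it. The change was 0.20 ± 0.21 (limma adjusted p = 0.77) and -0.06 under median scaling, and it was 0.41 ± 0.14 without siNRCP array 1 (limma adjusted p = 0.046).

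HSP90AA1 encodes the stress-inducible cytosolic HSP90. Its probe ILMN_1691097 had the largest change among the 17 probes. It read 13.23, 12.74 and 12.99 in sicontrol and 13.42, 13.86 and 14.07 in siNRCP. All 3 siNRCP arrays lay above all 3 sicontrol arrays. The mean was 12.99 ± 0.24 (SD, n = 3) in sicontrol and 13.78 ± 0.33 in siNRCP, a change of 0.80 ± 0.19 (1.74-fold; limma adjusted p = 0.11). Without siNRCP array 1 the change was 0.98 ± 0.14 (1.97-fold; limma adjusted p = 5.5e-05). In raw intensity the sicontrol arrays were at 8278 to 10703 and siNRCP arrays 1 to 3 at 12803, 10410 and 15652. In raw values siNRCP array 2 therefore lay below the highest sicontrol array, and arrays 1 and 3 above it.

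The brightest HSP90AA1 probe (ILMN_2373515) read 14.15, 13.81 and 14.01 in sicontrol and 14.29, 14.38 and 14.46 in siNRCP, again with no overlap. Its change was 0.38 ± 0.11 (limma adjusted p = 0.18), and 0.42 ± 0.12 without siNRCP array 1 (limma adjusted p = 0.017). The highest value on every array was 14.71, so this probe lay near the top of the scale; whether this narrowed its change was not tested. The remaining HSP90AA1 probe (ILMN_1687546) was dim, above background on 3 sicontrol arrays and 1 siNRCP array. Its change was -0.18 ± 0.19 (limma adjusted p = 0.76), and -0.40 ± 0.11 without siNRCP array 1 (limma adjusted p = 0.013), opposite in sign to the 2 bright probes.

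HSP90AB1 encodes the constitutive cytosolic HSP90. Its probe (ILMN_1673711) read 12.16, 11.76 and 12.03 in sicontrol and 12.07, 12.74 and 12.80 in siNRCP. siNRCP array 1 could not be told from the sicontrol arrays, and arrays 2 and 3 were clearly above them. The change was 0.55 ± 0.21 (1.46-fold; limma adjusted p = 0.30), and 0.78 ± 0.13 without siNRCP array 1 (1.72-fold; limma adjusted p = 0.00019).

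HSPB1 encodes HSP27, a small heat shock protein that holds unfolded clients without ATP, and DNAJB1 encodes a J-domain partner of HSP70. These were the 2 genes of the 10 that did not pass the test without siNRCP array 1. HSPB1 (ILMN_1674236) read 13.80, 13.92 and 13.78 in sicontrol and 13.90, 13.69 and 13.55 in siNRCP. siNRCP arrays 2 and 3 lay below all sicontrol arrays, where the brightest probes of 8 of the other genes lay above them. The change was -0.12 ± 0.11 (limma adjusted p = 0.72), and -0.22 ± 0.11 without siNRCP array 1 (limma adjusted p = 0.24). DNAJB1 (ILMN_1775304) read 9.14, 9.41 and 9.10 in sicontrol and 9.38, 9.01 and 9.22 in siNRCP, and the groups overlapped. Its change was -0.01 ± 0.13 (limma adjusted p = 0.98), and -0.10 ± 0.12 without siNRCP array 1 (limma adjusted p = 0.72).

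**Figure D2:**
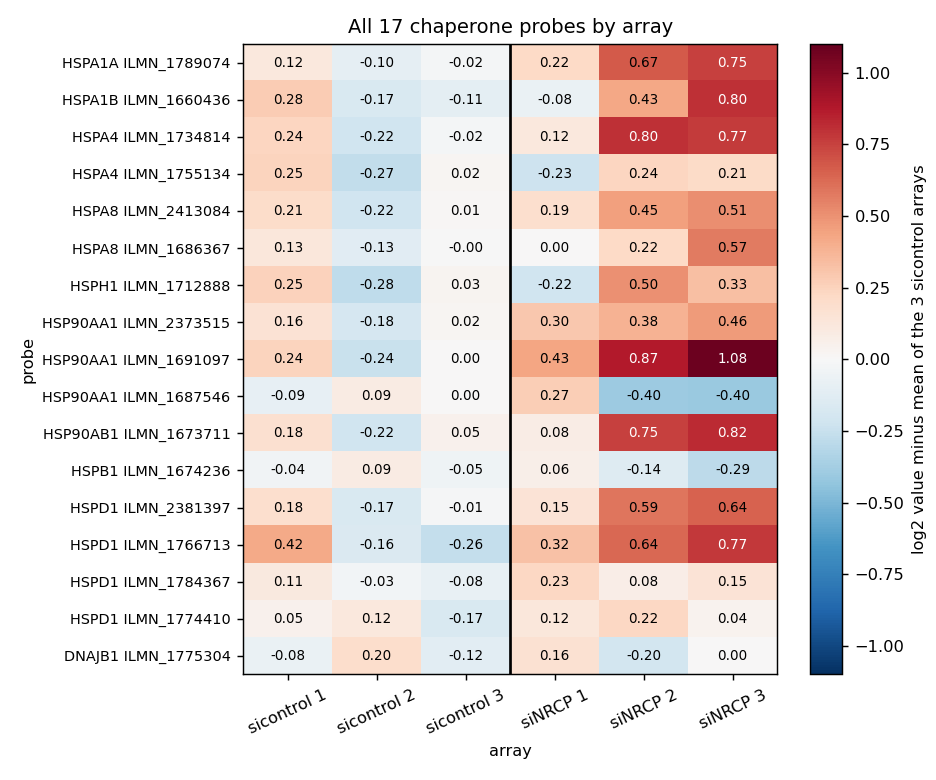
Log2 value of each of the 17 chaperone probes on each of the 6 arrays, minus the mean of the 3 sicontrol arrays, printed in each cell and coloured from blue (lower) to red (higher). The cells of siNRCP arrays 2 and 3 are red for most bright probes, up to 1.08 for HSP90AA1 ILMN_1691097, and blue for HSPB1 and the dim HSP90AA1 probe. Within sicontrol, array 1 is highest and array 2 lowest for 11 probes.

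HSPD1 encodes HSP60, the barrel of the mitochondrial chaperonin. Its brightest probe (ILMN_2381397) read 13.40, 13.05 and 13.21 in sicontrol and 13.37, 13.81 and 13.86 in siNRCP, and its second probe (ILMN_1766713) read 12.23, 11.65 and 11.55 in sicontrol and 12.13, 12.45 and 12.58 in siNRCP. On both probes array 1 of siNRCP lay within the sicontrol range and arrays 2 and 3 above it. The changes were 0.46 ± 0.16 and 0.58 ± 0.20 (limma adjusted p = 0.24 and 0.25), and 0.62 ± 0.12 and 0.70 ± 0.16 without siNRCP array 1 (limma adjusted p = 0.0011 and 0.0040). Another probe (ILMN_1784367) was dim and had a change of 0.15 ± 0.09 (limma adjusted p = 0.57). The last (ILMN_1774410) was above background on none of the 6 arrays and gives no fold.

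HSPE1 encodes HSP10, the lid that closes the HSP60 barrel, and its values ran the other way from those of HSPD1. HSPE1 (ILMN_1803775) read 11.33, 11.90 and 11.80 in sicontrol and 11.89, 10.75 and 10.67 in siNRCP. siNRCP arrays 2 and 3 lay below all sicontrol arrays, and array 1 lay near the highest of them. The change was -0.57 ± 0.33 (limma adjusted p = 0.52), and -0.97 ± 0.15 without siNRCP array 1 (limma adjusted p = 0.00011). A second HSPE1 probe (ILMN_2092536) had a change of -0.84 ± 0.37 (limma adjusted p = 0.37), and -1.22 ± 0.21 without siNRCP array 1 (limma adjusted p = 0.00032). The order within sicontrol was also reversed, with array 1 lowest and array 2 highest for both HSPE1 probes and array 1 highest for both bright HSPD1 probes. HSPE1 and HSPD1 lie head to head in the genome, and their RefSeq windows chr2:197500129-197500428 (plus strand) and chr2:197500225-197500524 (minus strand) shared 204 bases, with none of the searched letter runs in either. The other HSPD1 window, chr2:197499791-197500090, which carries runs of 3 units, shared 0 bases with that of HSPE1. The difference between the changes of HSPD1 and HSPE1 was not tested.

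**Figure D3:**
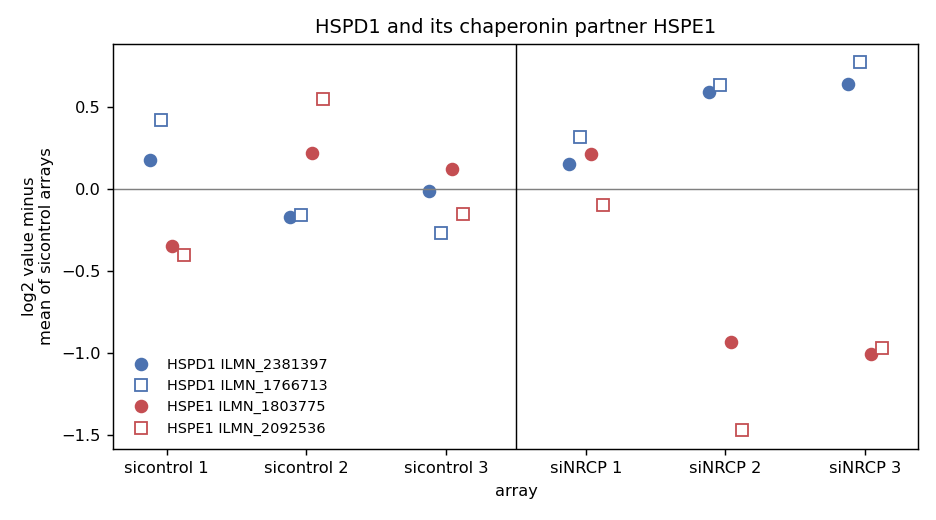
Log2 value on each of the 6 arrays, minus the mean of the 3 sicontrol arrays, for the 2 bright HSPD1 probes (blue) and the 2 HSPE1 probes (red). On siNRCP arrays 2 and 3 both HSPD1 probes lie above and both HSPE1 probes below every sicontrol array.

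Leaving out siNRCP array 1 made the change of every brightest probe larger in size, with HSPB1 and DNAJB1 moving further below 0. It also narrowed most of the errors. The spread within siNRCP was wider than within sicontrol for most of them. For HSPA1A the SD was 0.11 in sicontrol and 0.29 in siNRCP, and for HSP90AB1 it was 0.20 and 0.41. With 2 siNRCP arrays left, the calls rest on the spread between those 2 and the sicontrol arrays. siNRCP array 1 was the siNRCP array set aside for its likeness to the sicontrol arrays. Larger changes without it are therefore no separate support. Leaving out siNRCP array 2 or 3 instead called 0 chaperone probes.

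**Figure D4:**
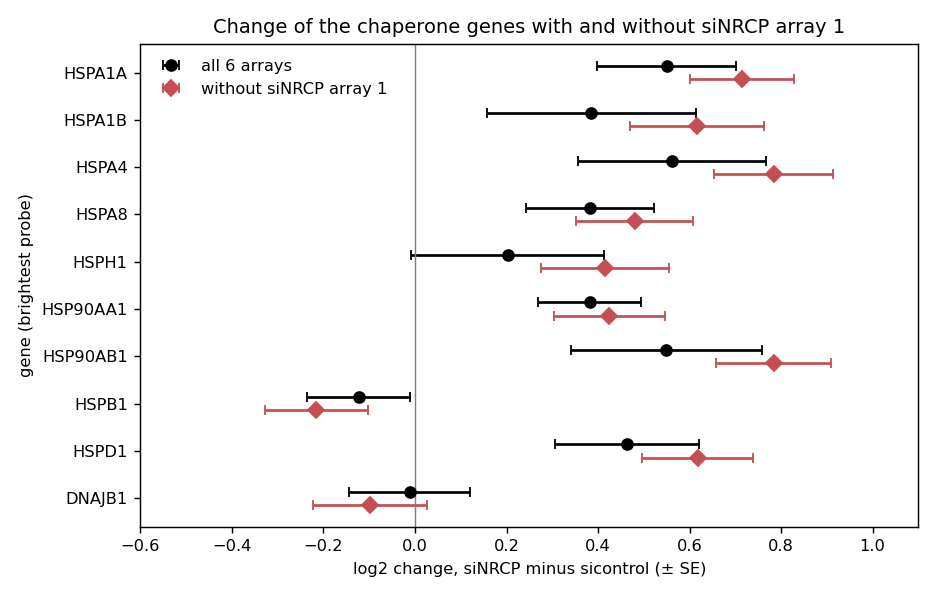
Change (siNRCP minus sicontrol, log2) of the brightest probe of each chaperone gene with its SE from limma, over all 6 arrays (black circles) and without siNRCP array 1 (red diamonds). The 8 genes with a positive change lie between 0.20 and 0.56 over all arrays and between 0.41 and 0.78 without that array, and HSPB1 and DNAJB1 lie at or below 0.

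Among genes that work with these chaperones, 84 of the 87 listed had a named probe, and 73 were above background on at least 3 arrays. Limma called 0 of the 84 higher and 4 lower, where it called 1.27% of all named genes higher and 1.51% lower. Of the 11414 named genes above background on at least 3 arrays it called 2.23% higher and 2.65% lower. The 4 were DNAJB9, BAG2, CCT4 and IFT25, each from a different list. At an unadjusted p under 0.05, 9 of the 84 were higher and 16 lower, where 2209 and 1910 of the 20046 named genes were. Of the 11414 above background, 2085 were higher and 1784 lower at that p. Their median change was -0.03 log2, against 0.38 for the 10 chaperone genes. Without siNRCP array 1 limma called 13 of the 84 higher (15.5%) and 26 lower (31.0%). That fit called 17.0% and 14.2% of all named genes, and 29.4% and 24.8% of those above background.

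The 4 genes that fell were these. DNAJB9 (ILMN_1773742), a J-domain protein of the endoplasmic reticulum, read 9.14, 8.97 and 9.01 in sicontrol and 8.06, 7.94 and 8.09 in siNRCP, a change of -1.01 ± 0.09 (limma adjusted p = 0.0076). BAG2 (ILMN_3244893), a co-chaperone that acts on the nucleotide exchange of HSP70, read 9.12, 8.96 and 9.11 in sicontrol and 7.90, 7.40 and 7.76 in siNRCP, a change of -1.38 ± 0.14 (limma adjusted p = 0.0094). For both genes all 3 siNRCP arrays, array 1 included, lay far below the sicontrol arrays. CCT4 (ILMN_1776073), a subunit of the cytosolic chaperonin TRiC, read 8.07, 7.77 and 8.06 in sicontrol and 7.19, 6.86 and 7.00 in siNRCP, a change of -0.95 ± 0.13 (limma adjusted p = 0.019). IFT25 (ILMN_1681340), an intraflagellar transport protein once named HSPB11 for its likeness to small heat shock proteins, read 9.05, 10.01 and 9.72 in sicontrol and 8.03, 6.72 and 6.82 in siNRCP, a change of -2.40 ± 0.38 (limma adjusted p = 0.031). All 4 kept a negative change with an adjusted p under 0.05 without siNRCP array 1, and each lost the call when any 1 of the sicontrol arrays or siNRCP array 3 was left out.

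HSF1 itself, the transcription factor of the heat shock response, was dim, above background on 5 of the 6 arrays, and had a change of 0.01 ± 0.12 (limma adjusted p = 0.98), and -0.10 ± 0.11 without siNRCP array 1 (limma adjusted p = 0.67). Limma called 0 of the 4 genes in the heat shock factor list, whose largest change among those above background was that of HSBP1, which encodes an HSF1-binding protein (-0.15 ± 0.11, limma adjusted p = 0.61). Of 18 other heat-inducible genes, 6 had a positive and 12 a negative change, with a median of -0.11 and 0 called. The largest were those of the ubiquitin gene UBB (-0.62 ± 0.22, limma adjusted p = 0.27) and of HSPE1, described above. The other heat-inducible genes thus had mostly negative changes where the 10 chaperone genes had mostly positive ones. Some of those negative changes were small or came from dim probes, and on siNRCP array 1 the median of that list was 0.02. The difference between the lists was not tested.

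Of 11 other HSP70 family genes, 8 had a positive change and 0 were called (median 0.12). The largest changes were those of HYOU1 (0.61 ± 0.24, limma adjusted p = 0.32), an HSP110-like protein of the endoplasmic reticulum, and HSPA13 (0.60 ± 0.21, 0.25). Of 13 HSP90 paralogues and co-chaperones, 9 were positive and 0 called (median 0.05), with the largest changes in UNC45A, a myosin co-chaperone that binds HSP90 (1.11 ± 0.29, limma adjusted p = 0.14), and STUB1, the chaperone-linked ubiquitin ligase CHIP (-0.63 ± 0.26, 0.34). Among 11 mitochondrial chaperones and proteases, 6 had a positive and 5 a negative change, and 0 were called (median 0.25). The proteases LONP1 (0.99 ± 0.22, limma adjusted p = 0.087) and AFG3L2 (0.97 ± 0.19, 0.063) had the largest changes there. The protease CLPP had the most negative one (-0.80 ± 0.32, limma adjusted p = 0.32). Without siNRCP array 1 limma called 5 genes of this list higher and 4 lower, CLPP among the latter.

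Of 13 other J-domain genes, 1 fell (DNAJB9) and the median was -0.18, with the next largest change in DNAJB12 (0.70 ± 0.15, limma adjusted p = 0.069). Dimmer DNAJB12 probes did not share it: ILMN_1712929 had 0.08 ± 0.11, ILMN_1758545 -0.01 ± 0.12 and ILMN_1781098 -0.03 ± 0.12. Of 9 nucleotide exchange factors 1 fell (BAG2), the median was -0.07, and the mitochondrial factor GRPEL2 had a change of 0.91 ± 0.22 (limma adjusted p = 0.10). Of 14 TRiC and prefoldin genes 1 fell (CCT4), 9 had a negative change and the median was -0.21, with PFDN5, a prefoldin subunit, at -0.72 ± 0.40 (limma adjusted p = 0.51). Of 9 other small heat shock genes 1 fell (IFT25) and the median was -0.10. Only 2 of those 9 were above background on at least 3 arrays.

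Of the genes just named that were not called over all 6 arrays, most were called without siNRCP array 1. Most had been named for the largest changes of their lists on these same arrays, so these calls are no separate support. That fit called 29.4% of the named genes above background higher and 24.8% lower. Without siNRCP array 1 limma gave 0.91 ± 0.13 for HYOU1 (adjusted p = 4.9e-05), 0.86 ± 0.11 for HSPA13 (3.2e-05), 1.49 ± 0.11 for UNC45A (1.6e-07) and -0.96 ± 0.12 for STUB1 (1.3e-05). It gave 1.26 ± 0.12 for LONP1 (adjusted p = 1.6e-06), 1.21 ± 0.11 for AFG3L2 (1.1e-06), 0.83 ± 0.12 for DNAJB12 (8.7e-05) and 1.15 ± 0.13 for GRPEL2 (7.8e-06). The DNAJB12 probes ILMN_1712929 (0.15 ± 0.11, limma adjusted p = 0.50) and ILMN_1781098 (-0.13 ± 0.11, 0.56) were not called. Of the dimmer HSPA13 probes, ILMN_1670565 was called (0.60 ± 0.11, limma adjusted p = 0.00084) and ILMN_3249645 was not (-0.03 ± 0.11, 0.93). PFDN5 was at -1.23 ± 0.16 (adjusted p = 2.3e-05) and UBB at -0.90 ± 0.11 (1.4e-05). HSBP1 was not called there either (-0.25 ± 0.11, limma adjusted p = 0.14).

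**Figure D5:**
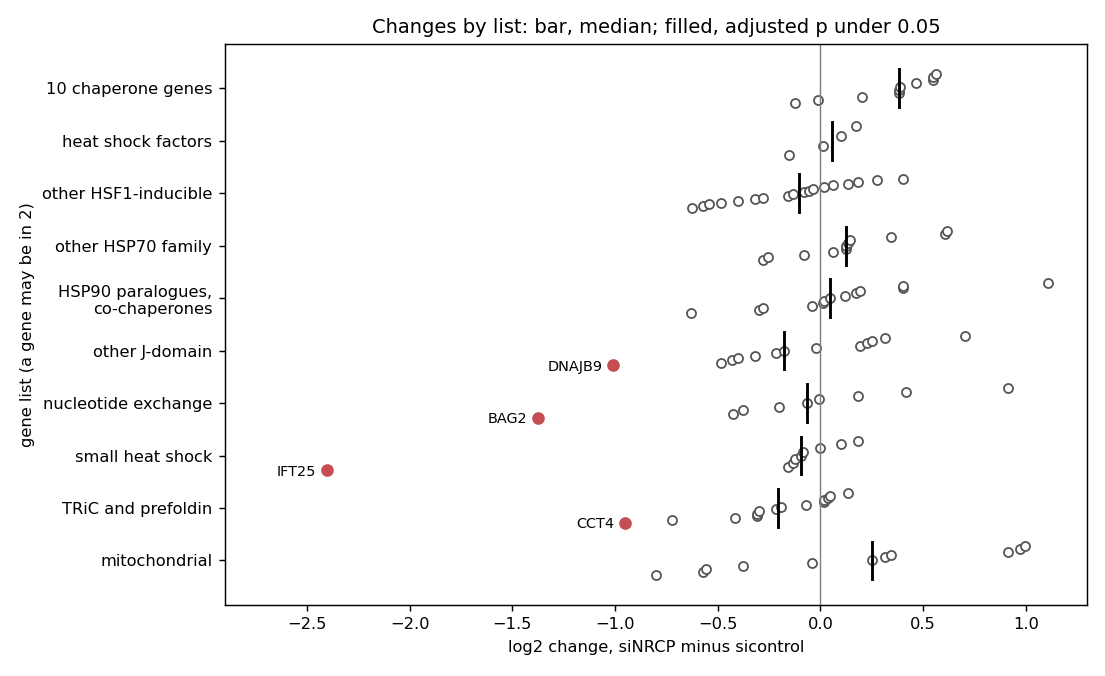
Change (siNRCP minus sicontrol, log2) of each gene by its brightest probe, for the 10 chaperone genes and 9 lists of genes that work with them. Vertical bars mark each list's median, filled points are genes with a limma adjusted p under 0.05, and a gene may stand in 2 lists. The chaperone genes have a median of 0.38 and no filled point, and the 4 filled points in the other lists are all below 0.

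The pattern of the chaperone genes over the 6 arrays was not theirs alone. Of 5008 genes that were above background on all 6 arrays with an SD of at least 0.3 log2, 1504 had a Pearson r of 0.9 or more with HSPA1A and 604 with HSPA8. Most like HSPA1A over the 6 arrays were ZNF12 and TSPAN17 (both r = 0.999), TRIM32 (0.999), DLGAP5 (0.998) and WDR6 (0.998). Most like HSPA8 were ATAD3A (0.997), VPS37B (0.990), the pseudogene TARDBPP3 (0.990), ABCF2 (0.988) and PLK2 (0.987). These are descriptions over 6 arrays, ranked among 5008 genes, and limma called none of the 10 over all 6 arrays. Without siNRCP array 1 it called each of them higher (limma adjusted p from 5.1e-06 for ZNF12 to 0.010 for PLK2). That fit called 29.4% of the named genes above background higher.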

How the data were processed

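Total RNA (500 ng per sample) from 3 sicontrol and 3 siNRCP samples of SKOV3 had been labelled with biotin and hybridised to Illumina bead arrays, per the labels' protocols. The deposited intensity table held non-normalized bead intensity per probe and array, exported with BeadStudio per the submitters' processing notes (its version is not given in the sources used here), without detection p-values. The deposited series matrix held the authors' log2 values, which differed from a log2 quantile normalization of that table by at most 0.0647; their exact target distribution is unknown.

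From the intensities, normexp background correction (offset 50), quantile normalization and log2 were computed, and all 47231 probes were fitted in limma 3.58.1 (R 4.3.3, lmFit and eBayes, 2-sided, no covariate). Of the probes 30113 carried 1 symbol, 8 several and 17110 none. The brightest probe stood for a gene. The fit was first tested on simulated arrays with known changes. Motifs were searched in Python 3.11.15 and the promoter pair was aligned with Biopython 1.88.

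The 10 genes and the related lists were chosen with earlier results of these data known, so lists are given by counts and medians with no test. Named were all 10 genes, every called gene of the related lists, up to 2 further genes per list with the largest change above background, HSF1, and the 5 genes most like HSPA1A and HSPA8. Names outside that rule (CLPP, further probes of HSPE1, DNAJB12 and HSPA13, markers) serve as context. Leave-one-out fits kept the normalization of all 6 arrays. Alternatives were no background correction, offset 16, median scaling, cyclic loess, the matrix values, a trended and robust eBayes, array weights, a replicate block, a filter on dim probes, the mean of a gene's probes and leaving out each array.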

Additional observations from a re-analysis of the deposited data

How the results depend on the processing

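Over 15 alternatives (14 for HSPD1 ILMN_1774410, which the filter on dim probes removed), 12 of the 17 chaperone probes passed the test under at least 1, and they did so only with array weights or without siNRCP array 1. With array weights 10 probes and 7 genes were called higher, against 0 in the fit without weights, and among the related genes 14 were higher and 21 lower. That fit called 8167 of the 47231 probes, 4187 of them higher. Leaving out 1 array gave 0 to 11 chaperone probes higher, 0 to 1 lower and 0 to 8 genes higher; each upper end is without siNRCP array 1. For the related genes it gave 0 to 13 higher and 0 to 26 lower. Cyclic loess called 2 related genes higher.

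The median change of the 10 genes ran from 0.18 under median scaling to 0.55 without siNRCP array 1. Of the probes called under median scaling, 57 of 288 were higher, against 348 of 781 under quantile normalization. It turned the change of HSPA8 ILMN_1686367 to -0.0090, of HSPH1 to -0.0565 and of the dim HSPA4 probe ILMN_1755134 to -0.0599. Leaving out 1 array gave that HSPA4 probe -0.0582 to 0.226 and DNAJB1 -0.0991 to 0.0865. Over all probes the calls numbered 9920 without siNRCP array 1, 187 and 39 without siNRCP array 2 or 3, and 5 to 18 without 1 of the sicontrol arrays.

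Same-numbered arrays deviated from their group means in opposite directions (correlations -0.64, -0.44 and -0.21). Differently numbered arrays had correlations from -0.53 to 0.64, with 0.51 and 0.64 between sicontrol array 1 and siNRCP arrays 2 and 3. The deviations within a group depend on each other, so these correlations cannot show whether same-numbered samples were handled as pairs. The replicate block left 0 of all probes and 0 of the 4 related genes called (adjusted p = 0.13 for DNAJB9 and BAG2, 0.14 for CCT4 and 0.22 for IFT25). IFT25 also lost its call without background correction (0.055) and with the matrix values (0.056), and CCT4 and IFT25 without siNRCP array 2 (0.070 and 0.11). The causes were not tested. The number of arrays limits the precision, most of all for the dim probes, for which no detection p-values were used.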
